A study of Homo sapiens with 14 samples.

Results

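The 10 genes described here encode subunits of the BAF chromatin remodelling complexes: the ATPases SMARCA4 and SMARCA2, the core subunits SMARCB1, SMARCC1, SMARCC2, SMARCD1 and SMARCE1, the large ARID subunits ARID1A and ARID1B, and SS18. They were chosen by name from 19970 protein-coding genes on the autosomes and X of the human annotation (GENCODE 44, hg38), and all 10 were found there. Each was examined in every peak list within 1 kb of the start of its canonical transcript and over its gene window, which is the gene body with 10 kb either side. At the start, the FLI1 antibody gave a region in all 4 of its libraries at 9 of the 10 genes, against 35.4% of all protein-coding genes. Each library on its own listed the same 9, where the share of all genes was 42.7% and 42.4% (set A) and 52.2% and 48.7% (set B). Requiring both libraries of a set, the share was 38.3% for A and 46.8% for B. ARID1B was the exception, with no FLI1 region at its start in any library (all genes, 43.4%). An H3K27ac region lay at the start in both libraries for 2 of the 10 (all genes, 12.4%), and an H3K27me3 region in both for 0 of the 10 (all genes, 9.96%).

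The study profiled TC-32, an established Ewing sarcoma cell line that carries the EWSR1::FLI1 fusion, by CUT&RUN, in which an antibody directs a nuclease to cut out the DNA it is bound to. It asked where the fusion binds relative to an activating histone mark, H3K27ac, and the repressive marks H3K9me3 and H3K27me3. All 14 libraries came from wild-type cells with no treatment, so the groups differ by antibody and by a letter in the labels, A or B, whose meaning is not stated. Set A held FLI1, H3K27ac and IgG, set B held FLI1, H3K9me3, H3K27me3 and IgG, and each had 2 replicates. The labels do not say whether replicates were separate cultures. Because each histone mark was taken in 1 set only, the mark and the set cannot be told apart, and a signal of the fusion and one of unfused FLI1 cannot be told apart either.

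BAF complexes, the mammalian SWI/SNF family, use ATP to slide or evict nucleosomes and so open enhancers and promoters. In the canonical form, which an ARID1 subunit marks, an ATPase subunit is built around a core of SMARCC, SMARCD, SMARCB1 and SMARCE1 proteins. SS18 belongs to the canonical and non-canonical forms. In Ewing sarcoma the fusion protein is known to bind BAF complexes and to bring them to GGAA microsatellites, while BAF subunits are themselves altered in other tumours: SMARCB1 is lost in rhabdoid tumours and SS18 is fused to SSX genes in synovial sarcoma.

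The FLI1 lists held 29339 to 40590 regions, the H3K27ac lists 10219 and 17366, with 36687 and 21770 for H3K9me3 and 21461 and 16667 for H3K27me3. The lists give no read totals, so the depth behind a region is unknown and a missing region means only that none passed the authors' threshold. The fold printed for a region is the authors' own value of signal over the matched IgG library. It describes and ranks regions within 1 list, and a percentile here is the rank of a region's fold within its own list, with 100 the strongest. At known targets of the fusion the FLI1 lists had regions in all 4 libraries: the fold at the start of NR0B1 was 36.8 and 48.0 (set A) and 21.9 and 12.6 (set B), that of CCND1 was 27.1, 22.2, 9.42 and 4.75, and that of NKX2-2 was 6.48, 10.2, 8.49 and 11.1 in the same order. The H3K27ac lists had 0 regions over the windows of these 3 genes in both libraries, and NKX2-2 had 1 H3K27me3 region over its window in each.

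SMARCA4 and SMARCA2 are the alternative ATPase motors of the complex. For SMARCA4 (chr19:10960932-11079426, plus strand, hg38), the FLI1 region at the start had folds of 5.77 and 6.61 (set A, replicates 1 and 2) and 21.3 and 9.62 (set B, replicates 1 and 2). Both set B values lay above both set A values. The summits, the points of highest signal, lay 366 and 402 bases before the start in set A, but 19 bases before and 14 bases after it in set B. For SMARCA2 (chr9:1980290-2193624, plus strand) the fold was 10.1 and 13.4 (set A) and 12.7 and 11.6 (set B), and the sets overlapped. Its summits lay 366, 350, 8 and 442 bases before the start in the order A1, A2, B1, B2, so that set B replicate 1 stood apart. SMARCA2 had no H3K27ac region at this start in either library, and SMARCA4 had 1 in replicate 1 (fold 5.65), whereas in replicate 2 the nearest lay 1.05 kb away.

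The strongest FLI1 region of SMARCA2 in 3 of the 4 libraries lay away from the start. In intron 1, about 11.2 kb after the start (chr9:2025841-2027309), it had a fold of 23.8 and 36.6 (set A) and 14.8 and 7.43 (set B), and no H3K27ac list had a region there.

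SMARCA2 has another cluster of annotated starts, of 16 transcripts that begin inside the gene, 142 kb after the canonical one. A FLI1 region lay there in all 4 libraries, at folds of 4.80, 7.27, 6.58 and 4.72, and H3K27ac regions stood at starts 144 kb after the canonical start in both libraries (4.61 and 5.52). H3K27ac at SMARCA2 was thus listed at internal starts and not at the canonical one.

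**Figure D1:**
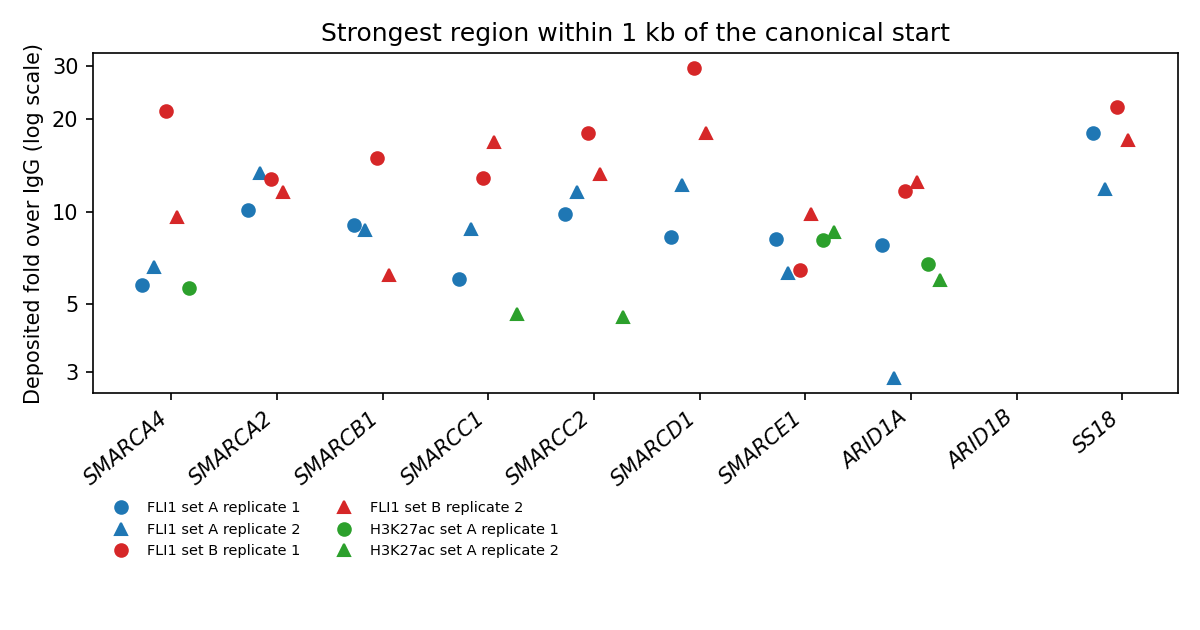
Deposited fold over IgG (log axis) of the strongest FLI1 or H3K27ac region within 1 kb of the canonical start, for the 10 genes on the horizontal axis. Blue marks FLI1 of set A, red FLI1 of set B and green H3K27ac, with circles for replicate 1 and triangles for replicate 2, and a missing symbol means no region: ARID1B has none, and only SMARCE1 and ARID1A have both green symbols.

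SMARCB1, SMARCC1, SMARCC2, SMARCD1 and SMARCE1 form the core of canonical BAF, on which the ATPase sits. SMARCB1 (chr22:23786931-23838009, plus strand) contacts the nucleosome's acidic patch, and its FLI1 fold at the start was 9.03 and 8.74 (set A) and 14.9 and 6.20 (set B). Replicates of set B thus spanned both set A values. The 4 summits were the closest together among the 9 genes, at 152, 133, 127 and 133 bases after the start. A copy of the ETS-type core CCGGAAG, whose GGAA is what ETS proteins such as FLI1 recognise, lies on the minus strand inside the first exon, 107 bases after the start. It is shown because it was the only copy within 100 bases of the summit of the strongest FLI1 region at any of the 9 starts, and it was so in all 4 libraries (chr22:23787059-23787088, minus strand, hg38, core in capitals).
SMARCB1 core: gggaaaccgaagCCGGAAGgcgaaatgcgg

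Over all FLI1 regions at coding starts, a CCGGAAG core on either strand lay within 100 bases of the strongest region's summit in 9.5% and 9.8% of the set A starts and 12.5% and 12.8% of the set B starts. Within 1 kb of the start the core was found at 5 of the 10 genes (SMARCA2, SMARCB1, SMARCC1, SMARCC2 and SMARCD1), against 28.5% of all coding genes. A match describes these letters only. SMARCB1 had no H3K27ac region at the start, but 1 in intron 7 in both libraries, with folds of 4.18 and 5.84, where no FLI1 list had a region.

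SMARCC1 (chr3:47585269-47782106, minus strand) and SMARCC2 (chr12:56162359-56189567, minus strand) are the paired scaffold subunits. At the SMARCC1 start the FLI1 fold was 6.03 and 8.77 (set A) and 12.9 and 16.9 (set B), so that the sets did not overlap, and the summits lay 199 to 245 bases before the start. Stronger FLI1 regions lay about 119 kb into the gene, over introns 19 to 21. The widest stretch there, chr3:47659588-47666877, had a strongest fold of 31.6 and 80.3 (set A) and 20.6 and 20.2 (set B). These are percentiles of 95.9, 99.2, 91.1 and 92.7, the highest of any FLI1 region over the 10 windows except in set B replicate 1. There the highest was the SMARCD1 start, at 96.3. H3K27ac regions lay within the stretch in both libraries. It holds a run of 13 GGAA units, the repeat the fusion is known to bind, whose middle is 308 to 1816 bases from the summits (chr3:47663174-47663305, plus strand, hg38, with 40 bases either side and the run in capitals).
SMARCC1 GGAA run: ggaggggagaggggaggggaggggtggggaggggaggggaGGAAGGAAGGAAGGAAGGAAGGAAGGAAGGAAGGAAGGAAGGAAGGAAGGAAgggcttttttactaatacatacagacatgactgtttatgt

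Runs of at least 4 GGAA units, read on both strands, were found in 2 of the 26 FLI1 regions over the 10 windows that were present in all 4 libraries, this one among them. In the whole lists 3.61% and 3.4% of the regions of set A and 3.66% and 4.25% of those of set B held such a run. These shares are of regions in single libraries. The 26 were joined across libraries, which can make them wider, so the measures are not alike. Regions with a run ranked high in every list, with a median percentile of 95.5 and 95.9 (set A) and 84.5 and 85.5 (set B). Over all coding starts with FLI1, the strongest region held such a run in 0.704% and 0.709% (set A) and 0.326% and 0.391% (set B). None of the 9 FLI1 regions at the starts of the listed genes held a run of at least 4 units. The longest there was 3 units, upstream of SMARCC2, and it is printed because its middle lies 18 to 182 bases from the summits of the 4 libraries (chr12:56189893-56189984, minus strand, hg38, run in capitals).
SMARCC2 GGAA run: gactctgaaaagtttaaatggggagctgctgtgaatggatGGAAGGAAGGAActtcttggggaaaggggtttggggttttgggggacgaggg

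At SMARCC2 the FLI1 fold was 9.82 and 11.6 (set A) and 18.1 and 13.3 (set B), again without overlap, and the summits lay 404 to 637 bases before the start. Its H3K27ac region lay at the edge of the start window, 1.01 kb away in replicate 1 and 0.998 kb away in replicate 2, so that it counted in replicate 2 only (fold 4.52). SMARCC1 also had an H3K27ac region at the start in replicate 2 only, with a fold of 4.62.

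SMARCD1 (chr12:50085200-50100707, plus strand) links the complex to transcription factors. Its FLI1 fold was 8.25 and 12.2 (set A) and 29.3 and 18.1 (set B). Both set B values were above those of set A, and the summits lay from 90 bases before to 57 bases after the start. No H3K27ac region lay there in either library. The RefSeq promoter of SMARCD1 held 8 copies of GGAA or its reverse complement TTCC in 300 bases, against a median of 3 over the 35097 promoters of the table. The other matched genes held 0 at ARID1A, 1 at SS18, 2 at ARID1B, 3 at SMARCA2 and SMARCB1, 4 at SMARCA4 and 5 at SMARCE1, and so spread around that median. For SMARCD1 only the part before the annotated gene is printed, with 2 of the copies in capitals (chr12:50085092-50085199, plus strand, GRCh38.p14).
SMARCD1 promoter: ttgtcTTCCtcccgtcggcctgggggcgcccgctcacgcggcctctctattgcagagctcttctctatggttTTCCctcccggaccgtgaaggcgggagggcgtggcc

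SMARCE1 (chr17:40624962-40648654, minus strand), a core subunit with an HMG domain, ranked in the middle of the FLI1 lists and near the top of the H3K27ac lists. Its FLI1 fold was 8.13 and 6.32 (set A) and 6.45 and 9.85 (set B), with the sets overlapping. The summits lay 116 and 437 bases before the start in set A, and after it, by 160 and 136 bases, in set B. The H3K27ac region spanned the start in both libraries, at folds of 8.09 and 8.57 and percentiles of 99.0 and 99.1 within their lists. It was 1483 and 1672 bases wide, against a median of 503 and 448 bases for H3K27ac regions at all coding starts.

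ARID1A and ARID1B are the paired ARID subunits of canonical BAF. ARID1A (chr1:26693236-26782104, plus strand), which is often mutated in carcinomas, had a FLI1 fold at the start of 7.81 and 2.87 (set A) and 11.7 and 12.5 (set B). The value of set A replicate 2 was the lowest of all 36 FLI1 values at the starts, at a percentile of 0.0924 in its list and a −log10 q of 2.38. The summits also stood apart between sets, at 646 and 681 bases before the start in set A and 209 and 219 bases before it in set B. A FLI1 region that was stronger in 3 of the 4 libraries lay about 3.23 kb before the canonical start, next to the first base of the annotated gene, with folds of 10.0, 19.0, 10.7 and 16.3 in the order A1, A2, B1, B2.

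H3K27ac counted at the ARID1A start in both libraries, but from different regions. In replicate 1 it was a region of 200 bases about 0.622 kb before the start, with a fold of 6.74. In replicate 2 the strongest was a region 1316 bases wide whose near edge was 0.903 kb before the start, with a fold of 5.99. Over the whole ARID1A window there were 6 and 10 H3K27ac regions, the most of the 10 genes in both libraries, and 7 to 10 FLI1 regions. Another FLI1 region, in intron 4, had folds of 6.70 and 5.95 (set A) and 20.8 and 17.8 (set B).

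ARID1B (chr6:156776020-157210779, plus strand), which can take the place of ARID1A and whose loss of 1 copy causes Coffin-Siris syndrome, was the gene without FLI1, H3K27ac, H3K27me3 or H3K9me3 at its start in any library. The distance from the start to the nearest FLI1 region was 244 kb and 2.82 kb in set A and 50.8 kb and 211 kb in set B. FLI1 regions in all 4 libraries lay far into the gene. The first, in intron 4 (chr6:157021053-157023374), had folds of 9.73, 8.31, 11.4 and 8.64, touched H3K27ac regions in both libraries and covered an annotated internal start. The second, in intron 7, had folds of 6.39, 13.1, 6.74 and 8.12, and the third, over exon 8 and another internal start, had folds of 6.29, 6.72, 3.53 and 5.18. ARID1B therefore had FLI1 in all 4 libraries only at internal starts and in introns.

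SS18 (chr18:26016253-26091217, minus strand), the subunit fused in synovial sarcoma, had the smallest spread of FLI1 percentiles. Its fold was 18.0 and 11.9 (set A) and 21.9 and 17.1 (set B), and the summits fell within 31 bases of each other, 86 to 117 bases before the start. This was the only FLI1 region over its window in each library. No H3K27ac region lay anywhere in the SS18 window, and the nearest was 1102 kb from the start in replicate 1 and 759 kb in replicate 2.

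**Figure D2:**
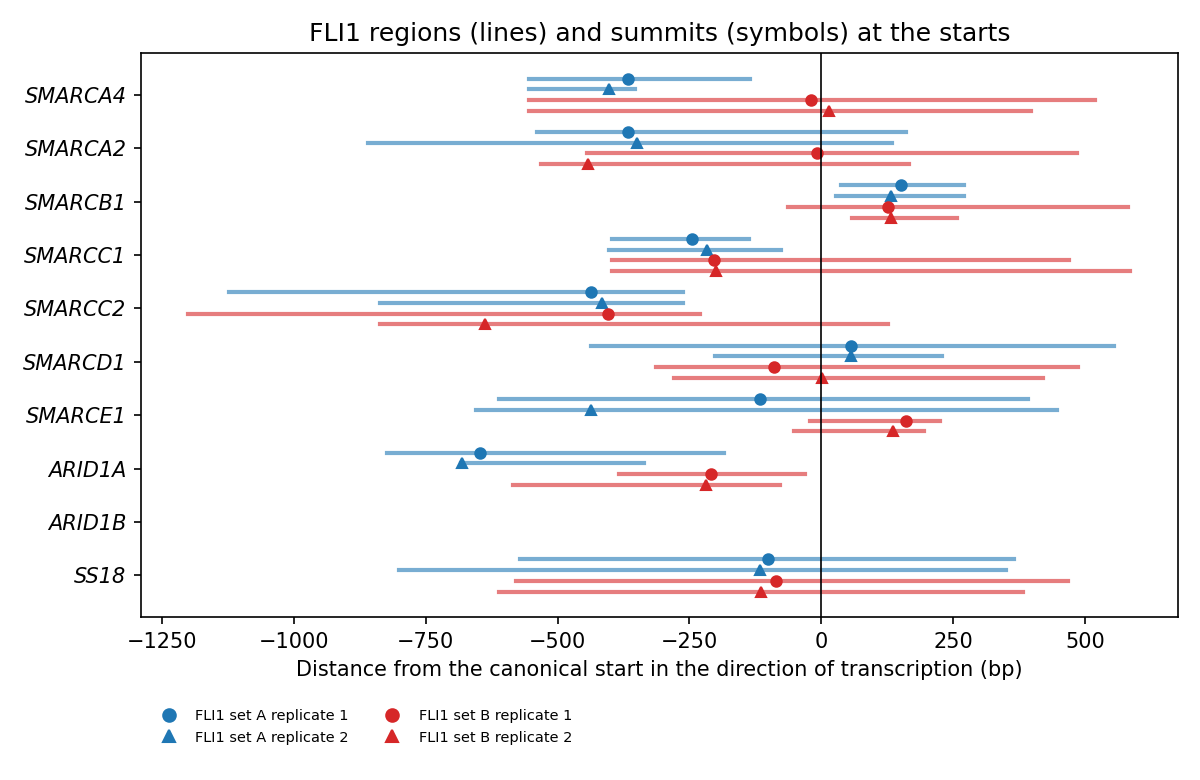
Position of the FLI1 region (line) and its summit (symbol) at the start of each gene, in bases from the canonical start in the direction of transcription, for the 4 FLI1 libraries (blue set A, red set B, circles replicate 1, triangles replicate 2). Summits of SMARCB1, SMARCC1 and SS18 fall within 46 bases of each other. Those of SMARCA4 and ARID1A lie over 200 bases apart between set means, with replicates of a set within 50 bases. At SMARCE1, SMARCD1 and SMARCC1 the sets also do not overlap, without meeting that criterion.

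Ordered by the mean percentile of the FLI1 region at the start over the 4 libraries, SS18 was first at 88.0 ± 4.91 (SD, n = 4), followed by SMARCD1 at 83.0 ± 14.4, SMARCC2 at 80.3 ± 6.93 and SMARCA2 at 77.1 ± 5.09. SMARCC1 (68.5 ± 21.6), SMARCB1 (61.5 ± 24.6), SMARCA4 (60.1 ± 24.3), ARID1A (52.6 ± 35.9) and SMARCE1 (50.4 ± 16.7) came after. No 2 neighbours in this order differed by more than the larger of their SDs; the widest gap, 8.63 between SMARCA2 and SMARCC1, compares with SDs of 5.09 and 21.6. The 9 regions were of ordinary strength for FLI1 at starts: their median percentile was 63.4, 69.7, 82.9 and 78.2 in the order A1, A2, B1, B2, beside 72.0, 73.3, 74.3 and 68.5 over all coding starts with a region.

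Between the sets, the fold was higher in both set B libraries than in both set A libraries at 5 of the 9 starts (SMARCA4, SMARCC1, SMARCC2, SMARCD1 and ARID1A), and the reverse held at 0 of the 9. Among the 7067 coding genes with FLI1 at the start in all 4 libraries, 36.9% had set B higher and 20.3% had set A higher. With percentiles in place of folds the same 5 starts were higher in set B, against 31.1% of all such genes. With 2 libraries in each set, the smallest two-sided p of an exact permutation test is 0.333, and fold depends on each library's depth, so these are values of the lists and no change of binding was tested. The summits of SMARCA4 and ARID1A were over 200 bases apart between the set means while replicates of a set were within 50 bases, a criterion chosen after these values were seen. It held for 2 of the 9 genes and for 580 of the 7067 (8.21%).

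For H3K27ac, the share of starts with a region in both libraries was 2 of the 9 genes with FLI1 in all 4 libraries, where 24.8% of all such genes had it. In at least 1 library it was 5 of 9, against 48.7%. These shares lie near the background. Over all 10 genes, 5 had H3K27ac at the start in at least 1 library (all genes, 25.1%), and 2 had it in both together with FLI1 in all 4 (all genes, 8.76%). The remaining 4 (SMARCA2, SMARCB1, SMARCD1 and SS18) had FLI1 in all 4 libraries and no H3K27ac at the start in either library, the pattern of 18.1% of all coding genes. The replicates differed, with 3 genes in replicate 1 (all genes, 16.1%) and 4 in replicate 2 (21.5%), of which 2 were shared.

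Over the gene windows, FLI1 regions were present in all 4 libraries at 10 of 10 genes (all genes, 56.3%) and H3K27ac in both libraries at 8 of 10 (all genes, 28.3%), all but SMARCD1 and SS18. With only peaks at a −log10 q of at least 5, the H3K27ac count was 2 of 10 (all genes, 7.86%). SS18 was the 1 gene with H3K27ac in no library over its window, as were 54.8% of all genes. Windows of long genes hold more regions by length alone. Per 100 kb, the 10 windows together held 2.49, 2.91, 3.11 and 2.56 FLI1 regions in the order A1, A2, B1, B2, beside 1.95, 2.15, 2.22 and 1.79 over the windows of all coding genes. For H3K27ac the density was 1.52 and 2.42, beside 0.719 and 1.19. ARID1A and SMARCC2 were the densest, with 6.43 to 9.19 and 8.47 FLI1 regions per 100 kb, while ARID1B had 0.88 to 1.76 and SS18 had 1.05. In set A and in set B replicate 1, all 4 SMARCC2 regions lay outside the gene body. Those at the starts of the neighbours MYL6B and MYL6 were among them. The ARID1A window likewise took in a region at the start of PIGV.

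**Figure D3:**
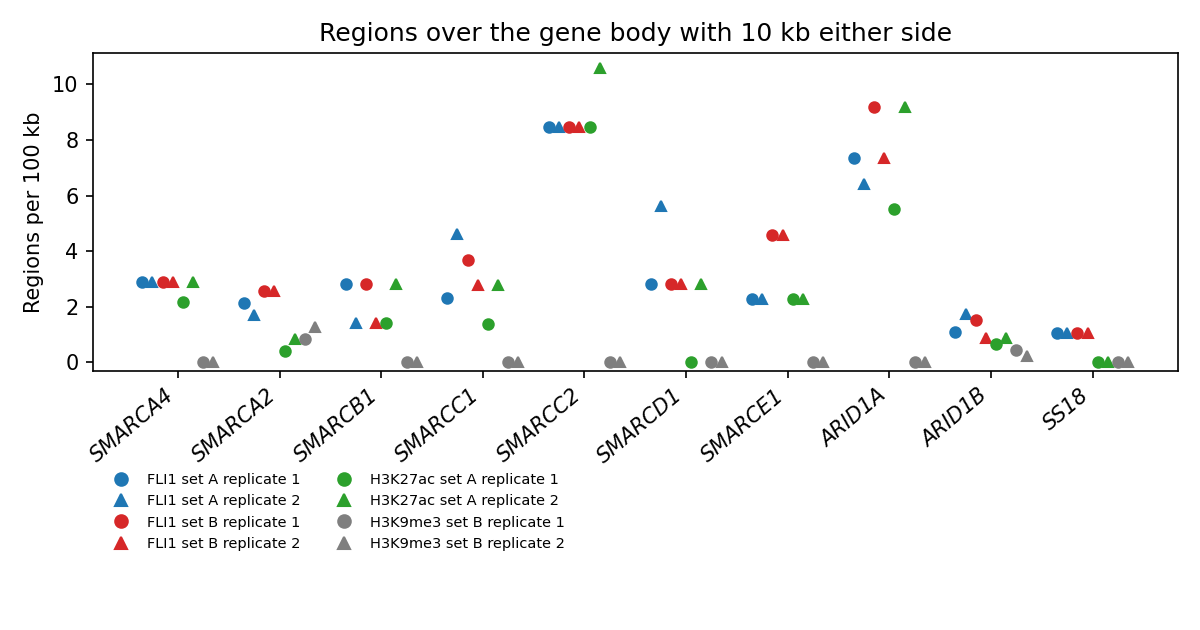
Regions per 100 kb of the gene window (gene body with 10 kb either side) for each gene and library, with FLI1 in blue (set A) and red (set B), H3K27ac in green and H3K9me3 in grey, circles for replicate 1 and triangles for replicate 2. ARID1A and SMARCC2 stand highest for FLI1 and H3K27ac, SS18 has 1.05 FLI1 regions per 100 kb in each library and no H3K27ac, and grey symbols above 0 occur at SMARCA2 and ARID1B only.

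Joined across libraries, the windows held 46 separate FLI1 regions, of which 26 were in all 4 libraries and 11 in 1 only. Of the 26, 13 lay at the canonical start of a coding gene, those of the neighbouring genes MYL6B, MYL6 and PIGV among them. The other 13 lay away from the canonical start of any coding gene. Some of the latter covered starts of other annotated transcripts, at SMARCA2 142 kb after the start, at ARID1B in intron 4 and over exon 8, and at ARID1A before the start. That ARID1A region and the wide SMARCC1 stretch also lay at starts of annotated genes that are not protein-coding, HIGD2AP2 at SMARCC1. Of these 13, 7 touched an H3K27ac region in at least 1 library. Joined in the same way, H3K27ac gave 43 regions, 11 of them in both libraries, and 23 touched a FLI1 region. The same shares over all FLI1 and H3K27ac regions were not computed, so these overlaps cannot be called high or low. A region found in both set B libraries and in neither of set A occurred once, downstream of SMARCE1 (folds 10.6 and 8.27).

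No repressive mark was listed at any of the 10 starts. Over the windows, the number of genes with H3K9me3 lay near the share of all genes. Regions per 100 kb were fewer than over all genes for both marks. No H3K27me3 region fell in any of the 10 windows in either library, a state shared with 78.1% of all coding genes, and the nearest to a start was 91.9 to 897 kb away. All genes with no H3K27me3 over the window, 15606 in number, had FLI1 at the start in all 4 libraries in 42.1% of cases. At the starts themselves, 12% and 10.3% of all genes had H3K27me3 in replicates 1 and 2, and 0 of the 10 did. No H3K9me3 region lay at a start either, where 2.42% and 1.36% of all genes had 1, 1.25% in both libraries and 2.53% in at least 1. Over the window, H3K9me3 was in both libraries at 2 of 10 (all genes, 25.3%), SMARCA2 and ARID1B, and the other 8 had it in neither (all genes, 65.1%). The SMARCA2 window held 2 and 3 such regions, among them 1 in intron 29 with folds of 4.48 and 5.44, 158 kb after the start. ARID1B had 2 and 1, and the region shared by both libraries lay in intron 4, 279 kb after the start, with folds of 4.88 and 5.05. Pooled, H3K9me3 reached 0.277 regions per 100 kb in each library, beside 1.22 and 0.769 over all coding genes. For H3K27me3 the density was 0 in each library, beside 0.84 and 0.69. Whether these densities differ was not tested.

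**Figure D4:**
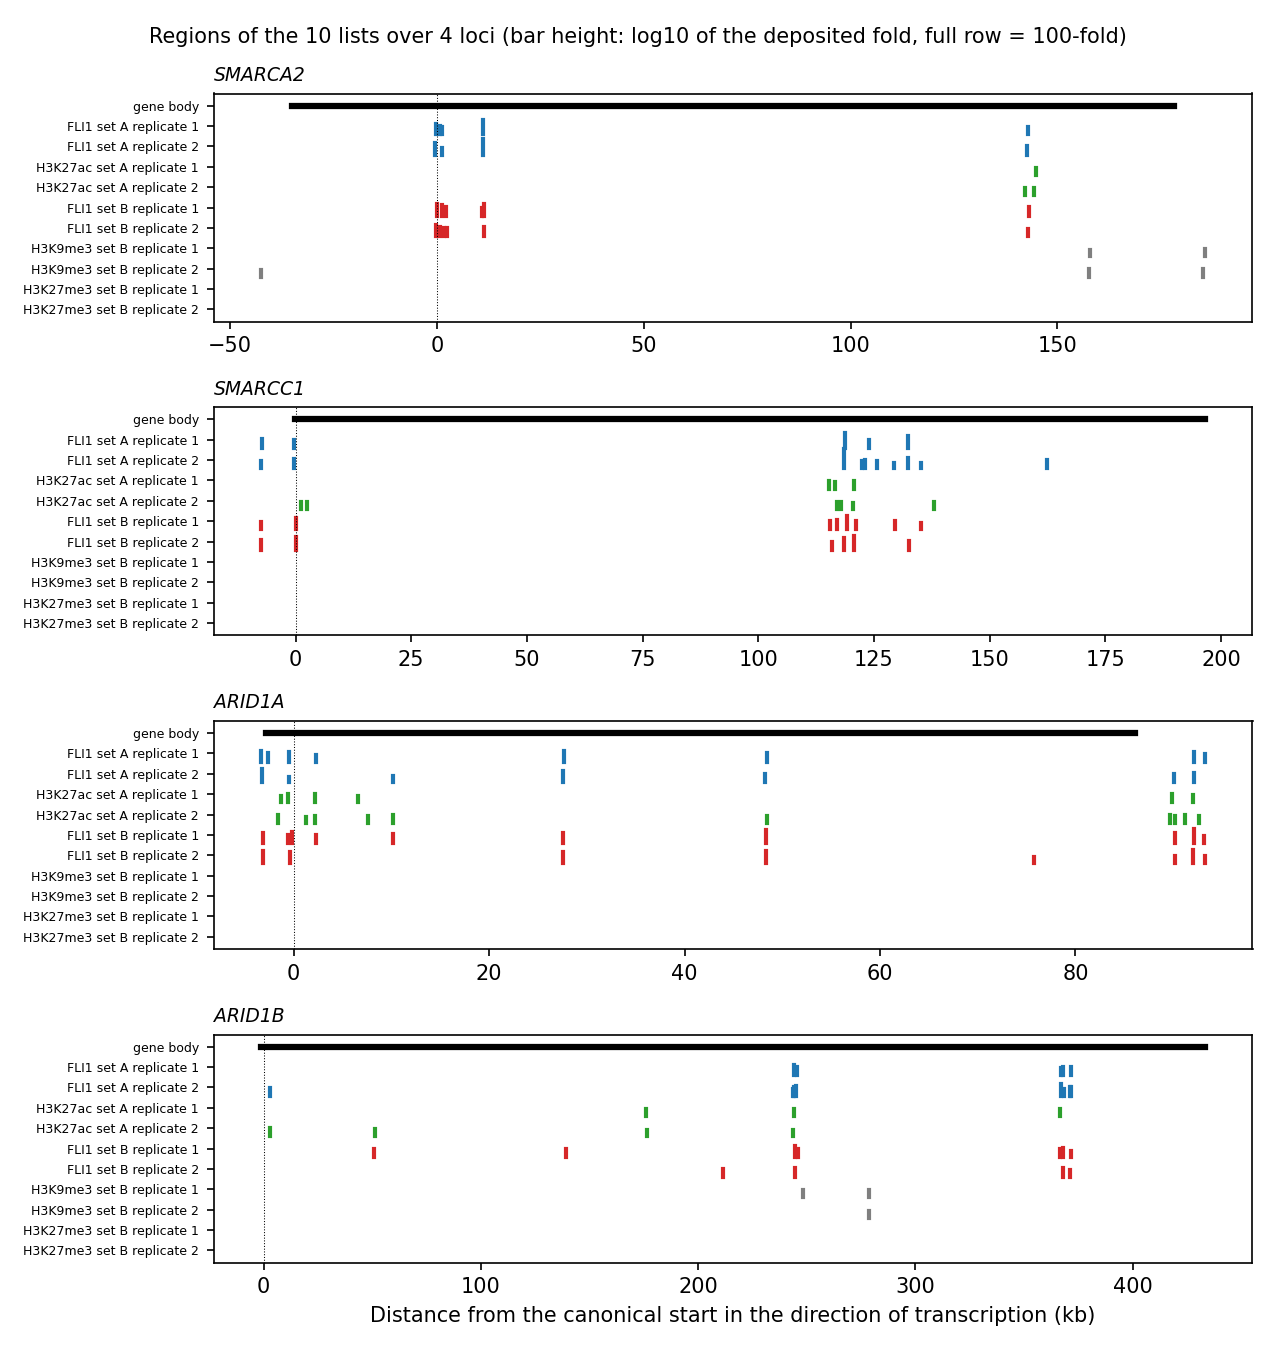
Regions of the 10 lists over the windows of SMARCA2, SMARCC1, ARID1A and ARID1B, by distance in kb from the canonical start in the direction of transcription; each bar is 1 region, its height is log10 of the deposited fold, and the black line is the gene body. FLI1 bars recur in all 4 libraries at shared places, such as 11.2 kb in SMARCA2 and 119 kb in SMARCC1, no H3K27me3 bar appears, and ARID1B has no bar at its start.

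Another 21 genes encode the rest of the BAF family, including the PBAF subunits, which carry ARID2 and PBRM1, and the non-canonical subunits such as BRD9. FLI1 lay at the start in all 4 libraries for 12 of the 21 (all genes, 35.4%) and H3K27ac in both for 3 of the 21 (all genes, 12.4%), namely SMARCD2, ARID2 and BRD9. BRD9 shares its promoter with TRIP13, whose start is 83 bases away. BCL7C, SS18L1, PBRM1 and BICRA had FLI1 in both set B libraries but not in both of set A. At PBRM1 the set B folds were 26.7 and 12.6, and its start lies 119 bases from that of GNL3. The SS18L1 start lies 375 bases from that of PSMA7. BICRAL had FLI1 in both set A libraries (13.4 and 14.3) and in set B replicate 2 only (4.03), and DPF1 had it in set A replicate 2 only (6.46). ACTL6A, an actin-like subunit chosen after its values were seen, had the highest mean percentile of all BAF-family genes with FLI1 in all 4 libraries, 96.7 ± 3.33 (SD, n = 4), with folds of 28.6, 21.2, 59.9 and 44.5.

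The genes ACTL6B, BCL7A and BCL11A, 3 of the 21, had no FLI1 region at the start in any library, as did ARID1B, 1 of the 10 listed genes, and 43.4% of all genes. BCL11A, a zinc finger subunit of neural and blood cells, was the only 1 of the 31 genes with H3K27me3 at its start, in both libraries, with folds of 6.63 and 6.64 over regions 16154 and 13042 bases wide. Its window held 16 and 17 H3K27me3 regions. ACTL6B, the neuron-specific counterpart of ACTL6A, had 2 and 3 H3K27me3 regions over its window but none at its start. BRD9, with FLI1 and H3K27ac at its start, had 2 and 1 H3K27me3 regions over its window, all in the flanks and none in the gene body. With BRD9, 3 of the 21 had the mark over the window in both libraries (all genes, 17.6%).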

How the data were processed

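CUT&RUN libraries of TC-32 cells were compared through 10 peak lists, 1 for each antibody library; the 4 IgG libraries served as controls in the authors' calls. Per the submitters' processing notes, cutadapt 4.4, Bowtie2, Picard 2.17.11 and MACS2 2.1.1 were used with GRCh38 (hg38); the notes give no role, order or setting. Names inside the deposited files show 1 list per library, called without duplicates against the IgG library that carries its letter and number, and no pooling. The authors' deposited fold is a ratio of signal to control. The deposited significance is given as −log10 p and −log10 q by the authors, and the lowest −log10 q in a list was 2.00 to 2.03. No peak ended past an hg38 chromosome. Depth is unknown, so no interval could be given.

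Summits listed separately within 1 H3K27ac region were merged, keeping the most significant. Starts are the 5′ ends of Ensembl canonical transcripts (GENCODE 44), with 1000 bases either side and at least 1 shared base; gene windows add 10 kb either side. The strongest region by fold stands for a start. Promoters came from RefSeq (GRCh38.p14), which matched 8 of the 10 genes. Counts stand beside the share over all 19970 coding genes, with no test. Python 3.11.15, numpy 2.4.6 and pandas 2.3.3 were used; the overlap step, tested on simulated data for the start windows, agreed for 19970 of 19970 genes. Members and lists were chosen with earlier results of these data known. Named are all 10 genes, those of 21 other subunits whose start pattern differed from that of most of the 10 or that had a repressive mark at the start, and 3 known fusion targets. Regions past the SMARCA4 start are counted but not reported one by one. The sequences printed were chosen after their values were seen. Alternatives changed the window, the start, the overlap, the threshold and the libraries.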

Additional observations from a re-analysis of the deposited data

Results flagged for a closer look

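Among 16 sets of 4 FLI1 values (the percentile at the start and the number of regions over the window, by gene), 1 held a library far from the others. The SMARCD1 window had 2 FLI1 regions in set A replicate 2 and 1 in each of the other libraries. Such a check singles out about 1 in 20 sets of continuous values by chance, a rate that does not hold for counts. Where all libraries but 1 tie, it always singles out that 1. A step from 1 to 2 regions is the smallest a count can make.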

How the results depend on the processing

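Of 88 alternative values of the counts, 73 stayed within 1.5 times the reported count and 15 did not. Counts of 0 that stayed at 0 are among the 73, and a stricter setting could not have raised them. FLI1 at the start of the 10 genes stayed between 8 and 10 under each alternative tried, and at 9 without any 1 library. The share of all genes ran from 32.2% (−log10 q of at least 5) to 56.6% (any library sufficing). For H3K27ac at the start, the 2 genes became 1 with 500 bases either side (all genes, 7.9%). They also became 1 with the annotation's gene start (11.3%) or with at least 200 bases of overlap (11.1%). The count was 4 with 2 kb (14.9%), 5 with the start of any coding transcript (14.8%) and 5 with either library sufficing (25.1%). Leaving out 1 library gave 3 (all genes, 16.1%) or 4 (21.5%). For the 21 other subunits the 3 became 1 with 500 bases (all genes, 7.9%) or with a −log10 q of at least 5 (2.84%). They became 8 with either library sufficing (25.1%), and 5 (16.1%) or 6 (21.5%) without 1 library. Over the windows, the 8 genes with H3K27ac fell to 2 at a −log10 q of at least 5 (all genes, 7.86%). The 2 with H3K9me3 became 4 with 50 kb either side (44.5%) and 0 at that threshold (7.56%). A stricter threshold leaves fewer regions and a wider window takes in more; otherwise the cause was not tested. Of 11 percentiles ranked instead by −log10 q, 10 moved by less than 1 SD, and H3K27ac at SMARCE1 went from 99.1 to 98.2. No paired analysis was possible because the results come from no test. Depth limits every missing region, since the lists give none.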
